A study of Mus musculus with 6 samples.

Results

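The forkhead transcription factors of mouse embryonic fibroblasts (MEFs) were followed by RNA-seq with and without RNF40, an E3 ligase that acts with RNF20 to monoubiquitinate histone H2B. The members were the rows of the deposited gene table whose symbol is Fox, a letter from a to s and a number, with or without a closing letter. Foxm1, a cell cycle regulator, was left out. Described here are 42 genes of the 29955 in the table, in 17 subfamilies named by the letter. Of these, 26 had enough reads to be tested, 10 had too few and 6 had none in any library.

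The MEFs came from mid-gestation embryos that carried Rnf40 loxP/loxP alleles and a Rosa26-CreERT2 transgene, whose tamoxifen-activated Cre recombinase is expressed throughout the body. In each genotype 3 samples were sequenced at passage 3. The Rnf40-/- cells had received 250 nM 4-hydroxytamoxifen (4-OHT) for 5 days, followed by 3 days without it. The labels repeat this protocol, worded for the knockout, for all 6 samples, and the sources used here do not state whether the sequenced Rnf40+/+ cells received 4-OHT, so deletion and treatment cannot be told apart. Nothing states that the samples came from separate embryos or cultures, so the p-values measure the spread between these samples, which may be technical.

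Forkhead factors share a winged-helix DNA-binding domain, and most bind sites built around the core TGTTTA. FOXO proteins are kept out of the nucleus by AKT phosphorylation, FOXP proteins act mostly as repressors, and FOXA proteins can open closed chromatin. FOXC and FOXF factors pattern the mesenchyme from which fibroblasts derive, while FOXL2 keeps the identity of ovarian granulosa cells.

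Promoters of 3 members that moved are shown for their CpG content, since CpG-rich promoters are typical of developmental regulators held by Polycomb and of genes active in every cell. The sequences run from 250 bases before to 50 after the transcription start, are taken from RefSeq (GRCm38.p6) and have each CG dinucleotide in capitals. Foxl2 (chr9:98955357-98955656, plus strand) and Foxa1 (chr12:57546062-57546361, minus strand) are low genes that rose, and Foxp4 (chr17:47924583-47924882, minus strand) is an abundant gene that fell.
Foxl2: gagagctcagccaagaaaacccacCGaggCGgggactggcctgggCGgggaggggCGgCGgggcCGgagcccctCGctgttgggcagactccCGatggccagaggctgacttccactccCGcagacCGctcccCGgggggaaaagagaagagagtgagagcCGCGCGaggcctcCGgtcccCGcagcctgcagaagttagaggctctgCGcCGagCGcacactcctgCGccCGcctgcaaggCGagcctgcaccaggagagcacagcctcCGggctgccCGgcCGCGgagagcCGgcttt
Foxa1: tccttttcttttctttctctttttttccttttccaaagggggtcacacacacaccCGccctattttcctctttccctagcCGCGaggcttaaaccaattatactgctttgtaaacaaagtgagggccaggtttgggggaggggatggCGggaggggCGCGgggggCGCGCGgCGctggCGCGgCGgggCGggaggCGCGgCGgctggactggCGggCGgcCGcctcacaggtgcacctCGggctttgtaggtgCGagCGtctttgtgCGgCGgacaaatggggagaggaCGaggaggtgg
Foxp4: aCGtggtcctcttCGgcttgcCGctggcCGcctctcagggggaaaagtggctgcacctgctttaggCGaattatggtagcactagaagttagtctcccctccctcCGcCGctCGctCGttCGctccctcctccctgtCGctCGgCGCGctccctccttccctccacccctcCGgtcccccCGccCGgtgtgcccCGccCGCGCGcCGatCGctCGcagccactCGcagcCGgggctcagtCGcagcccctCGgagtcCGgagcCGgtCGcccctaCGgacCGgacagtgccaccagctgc
They hold 27, 26 and 33 CG dinucleotides. RefSeq promoters were matched for 28 of the 42 members (33 promoters), with a median of 22 CG dinucleotides against 7 over all 32851 promoters of the same length. Members called higher had a median of 31 (5 promoters of 5 genes), and those called lower had 10.5 (6 promoters of 3 genes). Foxp4 thus lies above the median of the members that fell, and a difference between these groups was not tested. The ratio of observed to expected CG had a median of 0.680 over the members and 0.384 over all. The core TGTTTA, searched on both strands (TAAACA on the other), was present in 15.2% of the members' promoters (5 of 33) and in 13.4% of all. Those 5 belong to Foxa1, Foxp3 and, for the rest, alternative promoters of the single gene Foxp1. No entry was matched for Foxb1, Foxc2, Foxe1, Foxf1a, Foxh1, Foxj1, Foxk1, Foxl1, Foxn2, Foxo4, Foxo6, Foxp2, Foxq1 or Foxs1.

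The libraries held 17053436 to 26344170 reads assigned to genes in Rnf40+/+ and 18115481 to 20495627 in Rnf40-/- MEFs. Values are normalized counts, that is reads divided by a size factor of the library, and 3 reads correspond to 2.40 to 3.58 normalized counts. Rnf40 itself stood at 1278, 1195 and 1096 in Rnf40+/+ MEFs, against 439, 519 and 487 after deletion. It was thus lower in every library labelled Rnf40-/-, at 40.5% of the Rnf40+/+ mean, in a value that does not separate the loxP-flanked exons from the rest of the gene. Defining fibroblast genes were abundant in both genotypes, with Col1a2 between 107180 and 128920 in Rnf40+/+ and between 23758 and 24565 in Rnf40-/- MEFs.

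Across the forkhead genes, 6 rose and 4 fell in Rnf40-/- MEFs at an adjusted p under 0.05 (limma on log2 values with a pseudocount of 1, Benjamini-Hochberg adjustment over the 16378 genes tested), while 16 did not pass the test. Foxl2, Foxa1, Foxj3, Foxo1, Foxo3 and Foxo4 were higher, and Foxs1, Foxp1, Foxp3 and Foxp4 were lower. The 6 risers are 23.1% of the members tested, against 23.3% of all genes, and the 4 that fell are 15.4%, against 24.1%. The members' median log2 fold change was 0.135, beside -0.0035 for all genes tested. Without Rnf40+/+ replicate 3 it was 0.0645, and without Rnf40-/- replicate 2 it was 0.0845. By library, the members' median difference from the Rnf40+/+ mean was 0.205, 0.087 and -0.045 in Rnf40-/- replicates 1, 2 and 3. In Rnf40+/+ replicates it was 0.001, 0.013 and -0.023, so the genotypes overlapped in this median. Under the study's criteria (mean above 15, unadjusted p under 0.05, log2 fold change beyond 1), 1 member rose, Foxl2, and 1 fell, Foxs1. Foxp3 passed them as well, which made 2, without Rnf40+/+ replicate 1 or 2 or Rnf40-/- replicate 2. These criteria called 4.25% of all genes higher and 5.7% lower. The 3 values of one genotype all lay outside the range of the other in 14 of the 26 members tested, 9 higher and 5 lower, against 56.5% of all genes tested. Among genes with a mean above 15, 9 of 24 members passed the adjusted threshold beside 48.8% of all genes.

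**Figure D1:**
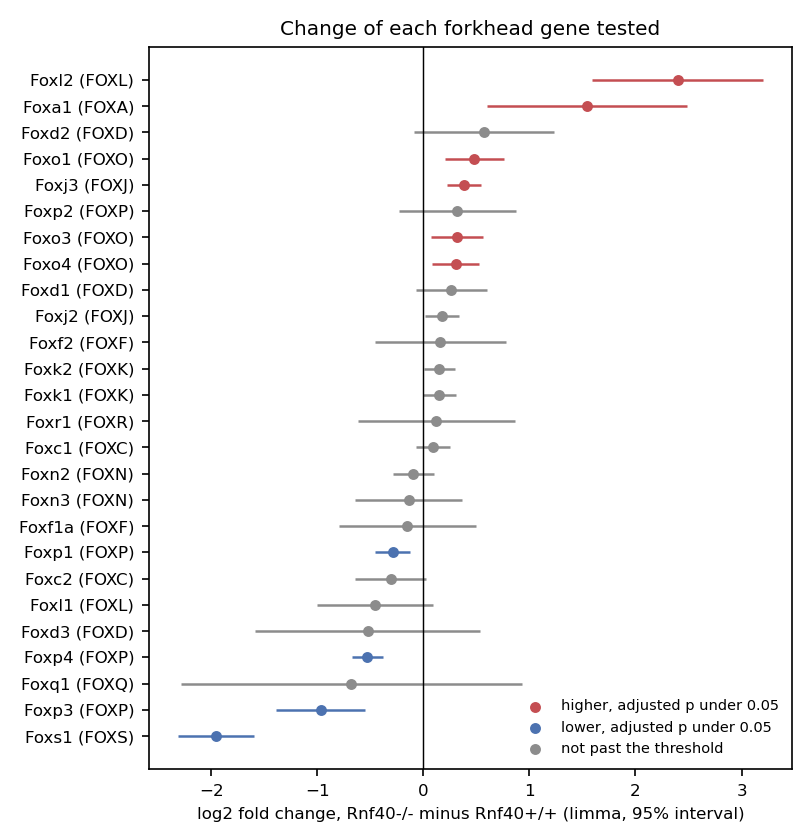
The log2 fold change of each of the 26 forkhead genes tested, Rnf40-/- minus Rnf40+/+, is drawn as a point with its 95% interval from limma, and the subfamily is given in brackets. Foxl2 and Foxa1 lie farthest to the right, Foxs1 and Foxp3 farthest to the left, and Foxq1 has the widest interval, from -2.29 to 0.93.

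The largest rise was that of Foxl2, a single-exon gene at chr9:98856026-98858545 (mm9, plus strand). The Rnf40+/+ libraries gave 4.78, 10.2 and 12.0 normalized counts, and those of Rnf40-/- MEFs gave 47.9, 41.7 and 57.6. The genotypes did not overlap, and the mean was 5.46-fold higher in Rnf40-/- MEFs. On the log2 scale the change was 2.40 ± 0.37 (SE; limma, adjusted p = 0.000228), from 29 reads in the 3 Rnf40+/+ libraries and 148 in the 3 Rnf40-/- libraries. Per kilobase of its transcript Foxl2 went from rank 25 to rank 20 among the 42 members, and made up 0.773% of the summed forkhead level per kilobase.

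Of 4 noncoding partners of forkhead genes listed, the values of 1, Foxl2os, were used here. It starts 296 nt from Foxl2 on the opposite strand. Foxl2os rose from 5.97, 7.14 and 8.78 to 48.9, 49.1 and 42.5 normalized counts, by 2.54 ± 0.32 on the log2 scale (limma, adjusted p = 4.91e-05). Both genes of this divergent pair were thus low in each Rnf40+/+ library and several fold higher in each Rnf40-/- library. Whether strand was used in the counting is not stated. The pair does not overlap in the annotation used here, though the gene models used in the counting may differ. The study names Foxl2 and Foxl2os from these samples, so their direction here is not independent evidence.

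Genes linked to FOXL2 and granulosa cells went both ways: of 20 listed, 12 were tested, 2 rose and 4 fell. These are 16.7% and 33.3%, against 23.3% and 24.1% of all genes tested. Esr2, the beta estrogen receptor, rose from 13.1, 21.4 and 16.0 to 44.9, 43.8 and 57.6 (log2 change 1.50 ± 0.29, limma, adjusted p = 0.0012). Efna5, an ephrin ligand, rose from between 748 and 894 to between 1634 and 1744. The study picked Esr2 and Efna5 in these cells too. The falls, as log2 changes, were those of Inhba (-1.01) and Inha (-0.86), subunits of activin and inhibin, of Sox9 (-0.85), the testis factor that FOXL2 opposes in the ovary, and of Inhbb (-0.38). The defining granulosa genes Cyp19a1, Fshr and Amhr2 were each at 7.19 normalized counts or below in all 6 libraries, too few for a test.

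Foxa1, a pioneer factor of endodermal and mammary epithelium, rose from 3.58, 6.12 and 8.78 to 16.3, 19.8 and 20.8. The genotypes did not overlap, though the gene rested on 20 reads in Rnf40+/+ and 57 in Rnf40-/- MEFs. The log2 change was 1.54 ± 0.43 (limma, adjusted p = 0.0114), and it was 0.85 with a pseudocount of 10. Foxa2 and Foxa3 were at 4.08 or below throughout. Epithelial markers were at like sums in the genotypes (460 to 814 against 602 to 842), and 1 of the 5 tested, the tight junction gene Cldn4, rose from between 2.39 and 8.78 to between 19.4 and 19.8. Cldn4 had enough reads for a test only through the Rnf40-/- libraries, so a fall could hardly be seen in it. Krt19 made up most of these sums, at 350 to 737 in Rnf40+/+ and 516 to 768 in Rnf40-/- MEFs. Epcam, which defines epithelium, had too few reads for a test and stood at 0, 0 and 1.60 in Rnf40+/+ and at 4.08, 4.17 and 8.50 in Rnf40-/- libraries, without overlap. Cdh1, Esrp1 and Grhl2 were at 7.14 or below in each library, and the part of other cells in the rise of Foxa1 was not tested. In bulk RNA, fewer cells of a type and less RNA per cell cannot be told apart.

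**Figure D2:**
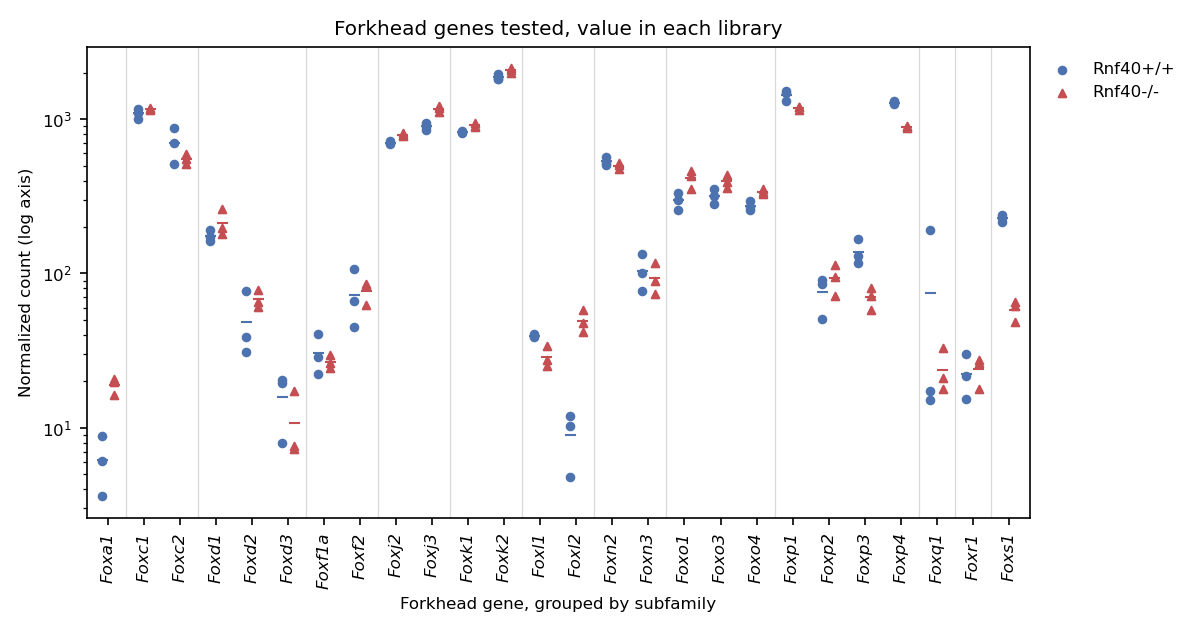
Normalized counts of the 26 forkhead genes tested are plotted on a log axis, with a circle for each Rnf40+/+ library, a triangle for each Rnf40-/- library and a bar at each mean. The genotypes do not overlap in 14 of the genes, with the widest gaps at Foxl2 and Foxs1, and 1 Rnf40+/+ library stands alone at 192 for Foxq1.

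The FOXO subfamily, which links insulin and growth factor signalling to cell cycle arrest, stress resistance and autophagy, moved one way in its tested members. Foxo1 rose from 258, 332 and 301 to 429, 355 and 461 (log2 change 0.48 ± 0.13, limma, adjusted p = 0.00827). Foxo3 rose from 318, 351 and 283 to 393, 432 and 360 (0.32 ± 0.11, limma, adjusted p = 0.036). Foxo4 rose from 258, 270 and 297 to 329, 337 and 351 (0.30 ± 0.10, limma, adjusted p = 0.0282). Each of the 3 genes was higher in every Rnf40-/- library than in any Rnf40+/+ library, by 1.23-fold to 1.40-fold of the means. Of all genes tested, 56.5% did not overlap in one direction or the other, and 23.3% were called higher. The calls of the smaller changes were lost with fewer libraries, while the changes stayed between 0.24 and 0.39 for Foxo3 and between 0.26 and 0.36 for Foxo4. Foxo3 missed the threshold (limma, adjusted p = 0.0539 to 0.146) without Rnf40+/+ replicate 1 or 3 or without Rnf40-/- replicate 1 or 2. Foxo4 missed it (limma, adjusted p = 0.0624 to 0.09) without Rnf40+/+ replicate 1 or 2 or without any 1 of the Rnf40-/- replicates, and by DESeq2 (0.0569). Foxo1 was called in all 16 alternatives. It shares 674 nt of exon with RP24-337A16.1, a transcript on the opposite strand, and the use of strand in counting is not stated. The fourth member, Foxo6, had too few reads, with 16.3 normalized counts in Rnf40-/- replicate 1 and between 0 and 3.99 elsewhere.

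Upstream of the FOXO proteins, 9 of the 29 regulators tested rose and 7 fell. These are 31.0% and 24.1%, against 23.3% and 24.1% of all genes tested. The kinase genes Akt1 and Akt2 had log2 changes of -0.05 and 0.07, neither past the test. The largest rises in log2 change were those of Pik3cb (0.96) and Pik3ca (0.52), catalytic subunits of PI3 kinase, and of Usp7 (0.59), a deubiquitinase of FOXO proteins. Skp2, the F-box protein that marks FOXO1 for degradation and is itself a cell cycle gene, fell from 301, 325 and 271 to 94.8, 108 and 102 normalized counts (log2 change -1.55). Ywhah (-0.57) and Ywhag (-0.42), 14-3-3 proteins that hold phosphorylated FOXO in the cytoplasm, fell too. Ywhab, another 14-3-3 gene, rose by 0.43.

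Among 36 genes described as FOXO targets, 30 were tested, of which 11 rose and 7 fell. These are 36.7% and 23.3%, against 23.3% and 24.1% of all genes tested, and the median log2 change was 0.07. The risers included, with their log2 changes, the autophagy genes Ulk1 (0.94), Atg12 (0.84) and Map1lc3b (0.62), and Cited2 (0.82), a transcriptional coregulator. Cdkn1b and Cdkn1a, the inhibitors of cyclin-dependent kinases p27 and p21, fell by 0.79 and 0.66 on the log2 scale, and Gadd45a, a damage response gene, fell by 0.62. Ulk1 went from 1179, 1245 and 1168 to 2319, 2350 and 2205 normalized counts, and Cdkn1b from 637, 573 and 585 to 345, 370 and 324. Gabarapl1, another autophagy gene, and Bnip3, a mitophagy gene, fell by 0.44 and 0.35, the apoptosis genes Bbc3 and Tnfsf10 rose, and the cell cycle inhibitors Ccng2 and Rbl2 did not pass the test. The liver targets G6pc, Pck1 and Igfbp1 were at 4.78 or below in all libraries.

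**Figure D3:**
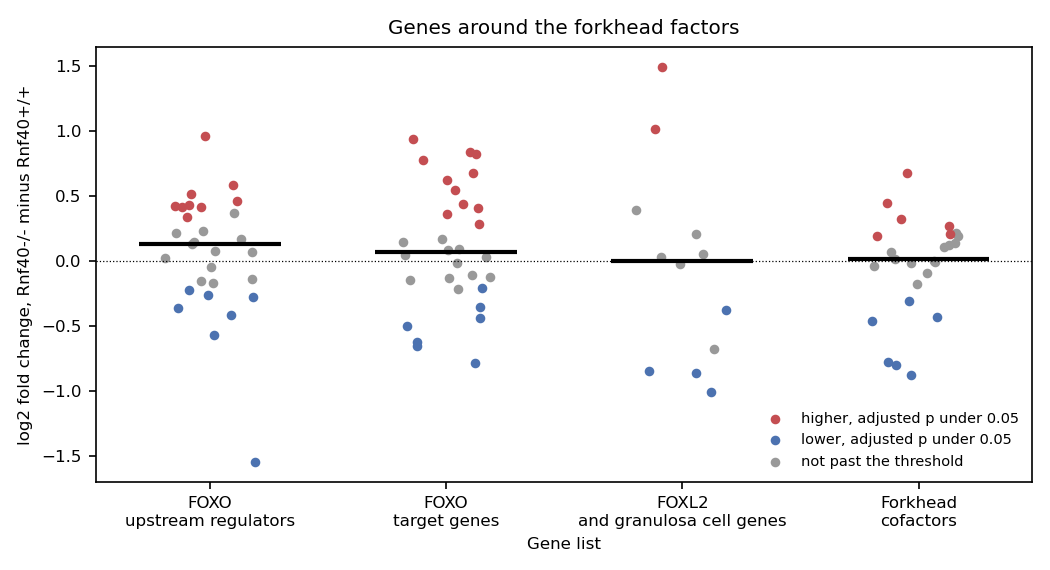
Each point is the log2 fold change of 1 tested gene, Rnf40-/- minus Rnf40+/+, in the 4 lists of genes around the forkhead factors, with a horizontal bar at the median of the list. The medians lie between 0.00 and 0.13, with called genes on both sides of 0 in each list.

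In the FOXP subfamily 3 of 4 members fell, where 24.1% of all genes tested fell. Whether the subfamily differs from other genes was not tested. Foxp4, expressed in lung and gut development, went from 1302.9, 1252.3 and 1289.7 to 889, 878 and 899 normalized counts. The SD was 26.3 and 10.6 around means of 1282 and 889, and the log2 change was -0.53 ± 0.07 (limma, adjusted p = 4.84e-05). Across the 16 alternatives its change lay between -0.54 and -0.52, which is the narrowest range of any member called. Foxp1, a repressor in lymphoid, cardiac and mesenchymal cells, fell from 1533.4, 1487.8 and 1311.2 to 1193, 1204 and 1143 (-0.29 ± 0.08, limma, adjusted p = 0.00788). Foxp2, known for its part in speech circuits, had 50.3 to 90.8 in Rnf40+/+ and 71.0 to 114 in Rnf40-/- MEFs, which overlap (0.32, 95% interval -0.23 to 0.87).

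Foxp3, the lineage factor of regulatory T cells, went from 130, 117 and 168 to 58.1, 80.4 and 71.8 normalized counts (log2 change -0.97 ± 0.19, limma, adjusted p = 0.00139). The defining T cell genes Cd3e and Cd3g were at 0 in all 6 libraries and Cd4 was at 4.79 or below. Of 9 T cell markers in all, 2 had enough reads and 1 of them, Cd28, rose. Their sum went from between 40.7 and 59.7 to between 119 and 145, of which Cd28 made up 81.4 to 96.9 in Rnf40-/- MEFs. At chrX:7156802-7172369 (mm9) Foxp3 lies within Ppp1r3f on the opposite strand, sharing 373 nt of exon with it and 590 nt with Ccdc22. Both neighbours fell as well, Ppp1r3f from a mean of 164 to 101 (log2 change -0.71) and Ccdc22 from 428 to 228 (-0.91). The merged exons of Foxp3 hold 3953 nt. Since the use of strand in counting is not stated, reads from the shared stretches cannot be assigned to Foxp3 or to these genes here. Their part in the fall of Foxp3 was not tested.

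Foxs1, a factor of pericytes and neural crest derivatives, had the largest fall. Its normalized counts of 215, 229 and 240 in Rnf40+/+ libraries stood against 61.2, 65.7 and 48.2 in Rnf40-/- libraries. The ranges lie far apart, at 25.6% of the Rnf40+/+ mean, with a log2 change of -1.96 ± 0.16 (limma, adjusted p = 1.95e-06). Per kilobase it went from rank 7 to rank 14 of the family. Of 11 smooth muscle and pericyte markers 7 fell and 1, Rgs5, rose, where 24.1% of all genes tested fell and 23.3% rose. Their sum went from between 160160 and 175090 to between 27321 and 32357. Most of it was Acta2 (mean 104530 against 20661) and Tagln (47935 against 5587). Among the markers Cnn1 fell by 3.99 and Tagln by 3.10 on the log2 scale, and Mcam and Cspg4 fell by 2.26 and 1.03. Rgs5 rose by 0.59, and Kcnj8, Abcc9 and Notch3 did not pass the test (log2 changes -0.13, 0.40 and 0.04). The fibroblast markers fell in 10 of 12 genes, their sum going from between 705420 and 772770 to between 424730 and 427980, and the part of these markers in the fall of Foxs1 was not tested.

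Of the FOXJ genes, Foxj3 rose from 892, 944 and 854 to 1109, 1175 and 1222 normalized counts (log2 change 0.38 ± 0.07, limma, adjusted p = 0.00117). Foxj2 was higher in each Rnf40-/- library (781 to 820) than in any Rnf40+/+ library (690 to 723) but missed the threshold (0.18 ± 0.07, limma, adjusted p = 0.064), and passed it by edgeR (0.0488). Foxj1, the master regulator of motile cilia, had too few reads, at 0 to 13.6 and 1.04 to 10.4. None of the 3 multiciliated cell markers tested passed, the list's sum was 91.0 to 100 in Rnf40+/+ and 69.3 to 87.7 in Rnf40-/- MEFs, and Spag6 and Dynlrb2 were at 0.944 or below.

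Foxk1 and Foxk2, widely expressed repressors of autophagy genes, were each higher in every Rnf40-/- library without passing the test. Such a lack of overlap, in either direction, was found in 56.5% of all genes tested. Foxk1 lay at 813 to 842 in Rnf40+/+ and 888 to 950 in Rnf40-/- MEFs (0.15 ± 0.07, limma, adjusted p = 0.106). Foxk2 lay at 1810 to 1956 and 1980 to 2135 (0.15 ± 0.07, limma, adjusted p = 0.0777). Both means were 1.11-fold higher, and Foxk2 passed only without Rnf40+/+ replicate 2 (limma, adjusted p = 0.0485).

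The forkhead genes of 2 genomic clusters were not called. On chromosome 13 Foxq1, Foxf2 and Foxc1 follow each other with gaps of 64845 and 175242 nt, and on chromosome 8 Foxf1a, Foxc2 and Foxl1 with gaps of 29219 and 9047 nt. Of these 6 genes 0 passed with limma, at an unadjusted p under 0.05 also 0, and 0 with edgeR or DESeq2. Among all genes tested, 47.4% passed with limma at an adjusted p under 0.05. Whether the clusters differ from other genes was not tested, and some of their members were low or variable. Foxc1, needed for eye and skeletal development, lay at 1004 to 1170 in Rnf40+/+ and 1140.0 to 1183 in Rnf40-/- MEFs (log2 change 0.09, 95% interval -0.07 to 0.25). Foxc2, a factor of lymphatic vessels, was the most variable abundant member, at 880, 706 and 515 in Rnf40+/+ and 551, 512 and 595 in Rnf40-/- MEFs. It overlapped between genotypes (-0.31, interval -0.65 to 0.03) and passed only without Rnf40+/+ replicate 3 (-0.51, limma, adjusted p = 0.00121) or with the replicate number as a block. Foxl1, listed as a pseudogene in the annotation used here, was at 38.8 to 40.6 and 25.0 to 33.6, without overlap or a call (-0.46 ± 0.25, limma, adjusted p = 0.154). Foxf1a (22.4 to 40.7 and 24.5 to 29.6) and Foxf2 (44.7 to 107 and 62.3 to 85.6) overlapped.

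Foxq1, an epithelial regulator, turned on 1 library. It was at 192 in Rnf40+/+ replicate 1 but at 17.3 and 15.2 in the other Rnf40+/+ libraries, and at 32.6, 20.9 and 17.9 in Rnf40-/- MEFs. The log2 change was -0.68 with all libraries and 0.48 without Rnf40+/+ replicate 1, and passed the test in neither case. The gene A530084C06Rik shares 1164 nt of exon with it on the opposite strand.

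Among the FOXD genes, Foxd1, a marker of kidney stroma, was at 161 to 191 and 179 to 261 and did not pass the test (log2 change 0.26, interval -0.07 to 0.60). Foxd2 overlapped (31.1 to 76.4 and 60.2 to 78.4), and passed only without Rnf40+/+ replicate 1, where its change went from 0.57 to 0.94 (limma, adjusted p = 0.0066). Foxd3, a neural crest factor, was at 7.99 to 20.3 and 7.31 to 17.3. Foxn2 (505 to 570 and 473 to 521), Foxn3 (76.4 to 133 and 73.1 to 117) and Foxr1 (15.3 to 29.9 and 17.9 to 27.5) overlapped too, with log2 changes of -0.09, -0.14 and 0.12. Of the rest, Foxa2, Foxa3, Foxb1, Foxd4, Foxe1, Foxe3, Foxh1 and Foxn1 had between 0 and 11.5 normalized counts in any library, and Foxb2, Foxi1, Foxi2, Foxi3, Foxn4 and Foxr2 had no read, which with a limit of 3 reads allows up to 2.40 to 3.58 normalized counts.

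Compared per kilobase of the longest annotated transcript, Foxk2 (371 ± 15.8, SD, n = 3), Foxp4 (320 ± 6.57), Foxc1 (274 ± 21.0) and Foxc2 (257 ± 67.1) led the family in Rnf40+/+ MEFs. The libraries of Foxk2 (360 to 389), Foxp4 (313 to 326) and Foxc1 (252 to 293) did not overlap, whereas those of Foxc2 (189 to 323) overlapped those of Foxp4, Foxc1 and Foxp1 (187 to 219), so the place of Foxc2 among these was not set beyond the spread. Foxp4 and Foxc1 changed places when all annotated exons were merged to one length. In Rnf40-/- MEFs Foxk2 (412 ± 16.1) still led, and Foxp4 (222 ± 2.65) came after Foxc1 and Foxj3. With merged exon lengths Foxp4 (180 ± 2.15) stood above Foxj3 (108 ± 5.22), so the order of this pair depended on the length used. Foxk2 went from 14.0% to 16.3% of the summed forkhead level per kilobase, and Foxp4 from 12.1% to 8.83%.

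The sum over these genes was 2652 ± 131 per kilobase in Rnf40+/+ and 2518 ± 27.0 in Rnf40-/- MEFs (SD, n = 3), with overlapping ranges. The sums of some subfamilies did not overlap. FOXP fell from 574 ± 16.2 to 423 ± 2.0 and FOXS from 174 ± 9.43 to 44.5 ± 6.96. FOXO went from 188 ± 11.7 to 242 ± 7.35, FOXJ from 323 ± 8.96 to 397 ± 9.83 and FOXK from 482 ± 17.8 to 535 ± 16.5. None of these 5 subfamilies overlapped between the genotypes, and FOXS is Foxs1 alone. FOXA and FOXE, at far lower levels and higher in Rnf40-/- MEFs, did not overlap either. FOXC (531 ± 88.0 and 494 ± 18.9) and the remaining subfamilies did. Among all single genes tested, 56.5% did not overlap in one direction or the other. No such share was obtained for sums of genes, so whether the subfamilies differ from other gene groups was not tested.

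**Figure D4:**
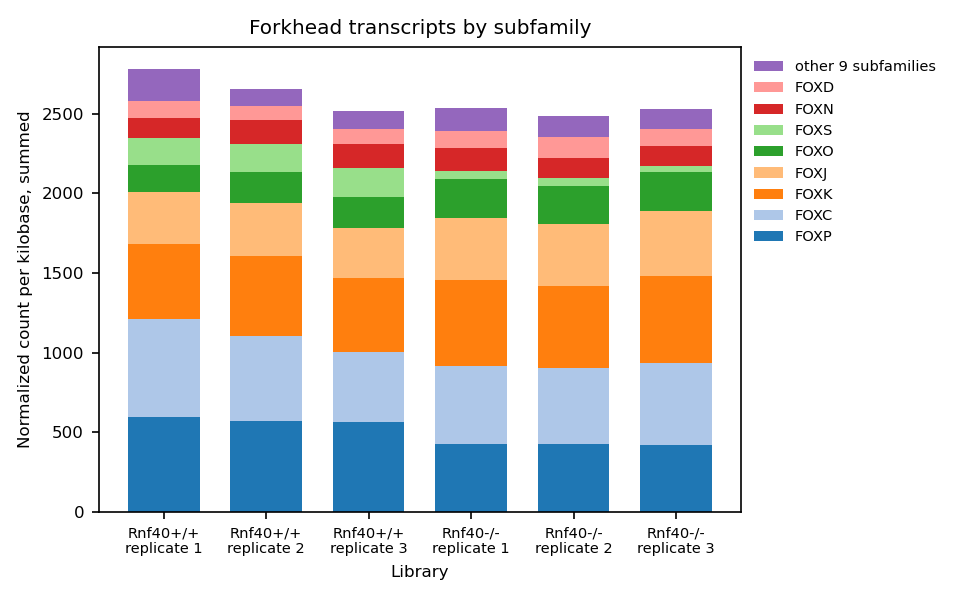
Stacked bars give the summed normalized count per kilobase of the forkhead subfamilies in each of the 6 libraries, with the 9 least abundant subfamilies pooled. The bars reach heights that overlap between the genotypes, with less FOXP and FOXS and more FOXO, FOXJ and FOXK in Rnf40-/- MEFs.

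The study lists genes bound by EZH2, the Polycomb methyltransferase of H3K27, and genes with broad H3K4me3 domains, and 13 and 4 forkhead genes described here are among them in the copies used here. Of the 13 EZH2 target genes 5 were tested. Foxl2 and Foxa1 rose, none fell, and Foxd2, Foxd3 and Foxf1a (listed as Foxf1) did not pass the test. Foxl2 and Foxa1 had only 29 and 20 reads in Rnf40+/+ MEFs and met the filter on low counts through the Rnf40-/- libraries. A fall could thus hardly be seen in them, and the count of risers is no support for a direction. Of all genes tested, 23.3% rose and 24.1% fell. Most were barely transcribed, the middle value being 1.76 normalized counts in Rnf40+/+ MEFs, and the 8 not tested were Foxa2, Foxb1, Foxb2, Foxd4, Foxe1, Foxe3, Foxi3 and Foxn4. All 4 broad H3K4me3 genes were tested, and their middle level was 896 normalized counts in Rnf40+/+ MEFs. Foxo3 rose, Foxp1 fell, and Foxc1 and Foxc2 did not pass the test. Among 17 tested members in neither list 3 rose and 3 fell. Whether these lists differ in how often their members moved was not tested.

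Of the genes for forkhead cofactors 25 were tested, and 6 rose and 6 fell (24.0% each), near the 23.3% and 24.1% of all genes tested. By log2 change, Smad4 (0.67) and Smad3 (0.44), transducers of TGF-beta signalling that bind FOXO and FOXH proteins, and Ctnnb1 (0.32), the beta-catenin that binds FOXO, rose. Sap30 (-0.88), a subunit of the SIN3 corepressor, Satb1 (-0.80), a chromatin organizer, and Tle2 (-0.78), a Groucho corepressor, fell. The Groucho genes Tle1 and Tle3 fell too, by 0.43 and 0.31, and Tle4 and Tle6 did not pass the test. Only 3 cofactors rose without Rnf40-/- replicate 1. For reference, Foxm1 was at 490, 389 and 340 in Rnf40+/+ and 280, 196 and 233 in Rnf40-/- MEFs, a log2 change of -0.78 ± 0.16 (limma, adjusted p = 0.00149).

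Markers of other cells present in such cultures moved as well, beside 23.3% of all genes tested that rose and 24.1% that fell. Endothelial markers rose in 4 of the 7 tested and fell in 1, and their sum went from between 715 and 863 to between 1070 and 1174, most of it Flt1. The defining markers Pecam1 (2.40 to 4.78 against 18.9 to 35.5) and Cdh5 (0.799 to 5.10 against 23.6 to 39.7) rose, as did Kdr (21.5 to 34.3 against 62.3 to 117), whereas Emcn fell and Cldn5 was at 0.799 or below in each library. Pecam1 and Cdh5 met the filter on low counts through the Rnf40-/- libraries. A fall could thus hardly be seen in them, and the count of endothelial risers is no support for a direction. Macrophage markers rose in 2 of 8 and fell in 1, and their sum went from between 5564 and 9426 to between 3701 and 4050. Most of this sum was Lyz2, the 1 that fell (3945 to 7440 against 2093 to 2383). Ptprc (46.6 to 75.9 against 155 to 171) and Cd14 (103 to 120 against 157 to 204) rose, and 5 did not pass the test. The table held 9 neural and neural crest markers, of which 6 could be tested and 1, Nes, fell, and their sum went from between 8576 and 9481 to between 7250 and 7476. Neurod1, a marker of neurons, was at 5.97 or below in all 6 libraries. Their part in the changes of the forkhead genes was not tested.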

How the data were processed

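RNA-seq of 3 Rnf40+/+ and 3 Rnf40-/- MEF samples was analysed from 1 deposited table. The authors made directional libraries, mapped the reads to the UCSC mm9 transcriptome and normalized with DESeq, so the deposited values are a signal per gene, counts divided by a size factor. Their processing notes name Bowtie2 2.1.0 and DESeq 1.14.0. The counting tool and its use of strand are not given in the sources used here.

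Whole reads were recovered from the deposited values (100% within 0.1 of a whole number), which gave the depths. Genes kept by filterByExpr were fitted with limma 3.58.1 (eBayes with trend) on log2(value + 1) in R 4.3.3, and p-values were adjusted by Benjamini-Hochberg over 16378 genes. A fold change on this scale understates the change of low genes. edgeR 4.0.16 and DESeq2 1.42.0 on the recovered reads were alternatives, besides other scalings, pseudocounts (0.1, 10), filters, a replicate block and leaving out each library. The tests were checked on simulated counts. Named were all members called, and from each list the 3 called genes with the largest rise and fall; other list and marker genes were chosen after their values were seen. Members and lists were chosen with earlier results of these data known. A forkhead gene and a listed regulator are not reported here and are in no count of members or lists. Positions and lengths are from GENCODE M1 (mm9), promoters from RefSeq (GRCm38.p6).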

Additional observations from a re-analysis of the deposited data

How the results depend on the processing

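Of the forkhead genes, 4 to 7 rose and 4 or 5 fell over all alternatives, beside 6 and 4, and no named change reversed among those called. By the criteria of the study, 0 members rose when 10 reads were required in every library, since Foxl2 was then not tested. Foxl2os also dropped out there, leaving 0 noncoding partners called. Leaving out 1 library gave 1 to 2 members lower by these criteria, with Foxp3 the second one (without Rnf40+/+ replicate 1 or 2 or Rnf40-/- replicate 2), and 3 to 5 cofactors higher. The median log2 change of the members was 0.11 with edgeR, 0.108 with DESeq2, 0.111 with a pseudocount of 10 and 0.0645 to 0.17 with 1 library left out. To look for pairing, the mean of the genotype was subtracted from the log2 values of each gene, and what remained was correlated between genotypes. Same-numbered replicates gave 0.0118, 0.0174 and 0.0212, and different-numbered ones -0.0531 to 0.0371, so the numbers were not taken as pairs. With a replicate block 8217 genes were called instead of 7764, and Foxc2 was the 1 forkhead gene added (adjusted p = 0.0478, limma). With merged exon lengths Foxj3 went from rank 6 to rank 9 by level per kilobase. Of the 16 members not tested, 10 were left out by the filter on low counts and were tested without it, and 6 had no read.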

Other observations

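In the library Rnf40+/+ replicate 1, where Foxq1 was at 192 normalized counts, several marker genes were also highest of the 6 libraries. They were chosen after their values were seen. Des, an intermediate filament gene of muscle, was at 431 there and at 126 and 114 in the other Rnf40+/+ libraries. Krt8, a keratin of simple epithelium, was at 58.5 there and between 1.02 and 9.58 in the other 5 libraries. Tek, the angiopoietin receptor of endothelium, was at 115 there, at 11.2 and 16.0 in the other Rnf40+/+ libraries and at 43.8 to 73.1 in Rnf40-/- MEFs. Whether these values have a shared source was not tested.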
